A study of Mus musculus with 56 samples.

Results

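The 10 genes described here, Il6, Osm, Il24, Il3, Csf2, Il9, Il21, Tnf, Lta and Ltb, encode cytokines that CD4+ T cells can make and that are not the signature products of TH1, TH2 or TH17 cells. They were chosen by name, 10 of the 47937 genes listed, with earlier results of these data known. Their rows were read in every library of both count tables. RNA sequencing counts came from CD4+ T cells of spleen and lymph node of C57BL/6 mice, cultured until day 4 with anti-CD3, anti-CD28 and IL-2 under TH1, TH2, TH17 or Treg conditions. The Odc table holds cells of Odc flox/flox mice and the Dohh table cells of Dohh flox/flox mice. In each, WT cells came from Cre-negative animals of the cross, and cells with Cre driven by the CD4 promoter are called Odc-/- or Dohh-/- here. Odc encodes ornithine decarboxylase, the rate-limiting enzyme of polyamine synthesis, and Dohh encodes deoxyhypusine hydroxylase, which completes hypusine on the translation factor eIF5A. The comparison of each deletion with its own WT cells asks how each step bears on the identity of helper T cells. The Odc table has 4 libraries per group, except 3 for Odc-/- TH2 cells, where replicate 1 was not analysed here, and the Dohh table has 3 per group. The series describes its replicates as biological, and nothing in the labels says which animals they came from, so p-values measure the spread between these libraries.

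TH1 medium held IL-12, IL-2 and anti-IL-4, TH2 medium IL-4, IL-2 and anti-IFN-γ, TH17 medium IL-6, TGF-β, IL-1 and antibodies to IFN-γ and IL-4, and Treg medium TGF-β, IL-2 and the same 2 antibodies. IL-6 protein was thus supplied in TH17 cultures, and the counts measure transcripts of the cells themselves. The CD4 promoter drives Cre from the stage of thymocytes that carry both CD4 and CD8, so both T cell lineages lose the floxed exons. Cells were enriched by negative selection, which removes labelled cells of other types and does not select for CD4.

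Cytokines of activated T cells act over short distances on cells that carry the matching receptor. IL-6 and oncostatin M signal through gp130, and IL-24 belongs to the IL-10 family. IL-3, GM-CSF (encoded by Csf2) and IL-9 support myeloid cells, basophils and mast cells, IL-21 helps B cells and CD8 T cells, and TNF and the lymphotoxins drive inflammation and the building of lymphoid tissue. Engagement of the T cell receptor turns these genes on through NFAT, AP-1 and NF-kB, and many of their transcripts carry AU-rich elements that mark them for rapid decay.

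Promoters were available for 8 of the 10 genes, not for Il24 and Osm, as the 250 bases before to the 50 after the start in RefSeq on GRCm38.p6. Il6 and Il9 are shown because Il6 was called in every comparison and Il9 in every Odc comparison, and because they were the only 2 of the 8 with a match to AP-1, and Il21 because it was lower in 4 of 8 comparisons. Capitals mark matches on either strand to AP-1 (TGANTCA), NF-kB, the cyclic AMP element (TGACGTCA) or the TATA box (TATAAA), with positions counted from the start site.
Il6, chr5:30012864-30013163, plus strand: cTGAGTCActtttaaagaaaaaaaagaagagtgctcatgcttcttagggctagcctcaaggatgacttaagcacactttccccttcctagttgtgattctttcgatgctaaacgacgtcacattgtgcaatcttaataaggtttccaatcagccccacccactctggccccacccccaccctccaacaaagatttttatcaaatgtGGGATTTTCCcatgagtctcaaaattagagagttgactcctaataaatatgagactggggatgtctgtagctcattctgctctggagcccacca
Il9, chr13:56482208-56482507, minus strand: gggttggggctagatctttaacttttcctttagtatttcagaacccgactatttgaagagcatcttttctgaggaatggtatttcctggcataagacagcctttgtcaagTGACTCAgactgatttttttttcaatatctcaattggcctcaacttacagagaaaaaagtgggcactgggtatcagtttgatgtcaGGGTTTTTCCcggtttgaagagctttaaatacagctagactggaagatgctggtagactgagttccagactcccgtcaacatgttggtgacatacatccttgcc
Il21, chr3:37232587-37232886, minus strand: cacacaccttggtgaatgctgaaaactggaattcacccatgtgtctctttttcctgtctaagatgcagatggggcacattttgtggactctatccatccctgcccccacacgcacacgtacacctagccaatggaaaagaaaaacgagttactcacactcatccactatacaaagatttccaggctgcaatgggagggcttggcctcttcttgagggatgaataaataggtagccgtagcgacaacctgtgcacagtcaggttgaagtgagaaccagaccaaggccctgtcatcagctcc

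In Il6 the AP-1 match starts at -249 and the NF-kB match at -44, and in Il9 they start at -140 and -54. Ltb alone of the other 6 held an NF-kB match, at -87 on the minus strand, and Tnf and Lta held a TATA box, at -29 and -167. The Csf2 window, chr11:54249850-54250149 on the minus strand, lies wholly upstream of the Csf2 start in GENCODE vM21, at 54249667. It does not cover the bases next to that start. Of 32851 promoters of the same length, 7.81% held the AP-1 letters, 4.79% the NF-kB letters, 13.6% the TATA letters and 1.79% the cyclic AMP letters, which none of the 8 held. The NFAT core (GGAAA), which overlaps the NF-kB matches of Il6, Il9 and Ltb, was in all 8 and in 61.3% of all promoters.

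The core letters of AU-rich elements, ATTTA, were found in the 3' UTR of 9 of the 10 genes, read from the first-numbered protein-coding transcript of each in GENCODE vM21 on GRCm38. The densest stretch of at most 30 bases is given for 4 of them, since these had the most matches per kb or the longest runs, with ATTTA in capitals.
Il9, chr13:56479326-56479354, minus strand: gctATTTAttctATTTAttgaATTTAcaa
Csf2, chr11:54247326-54247352, minus strand: aatATTTATTTATTTATTTATTTAttt
Il6, chr5:30019688-30019709, plus strand: ttaATTTAttgataATTTAaat
Tnf, chr17:35199678-35199706, minus strand: tATTTAttATTTATTTAttATTTATTTAt
Per kb of UTR there were 34.9 such matches in Il9, 28.4 in Csf2, 14.1 in Il6, 10.5 in Il24 and Tnf, 9.9 in Il3, 5.9 in Osm, 5.24 in Lta and 3.49 in Il21. Ltb had none in its 156 bases. Among 19573 UTRs of at least 30 bases, 59.7% held a match, and the median was 1.03 per kb.

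Counts per library summed to 5905374 to 9145214 in the Odc table and to 6572148 to 12576933 in the Dohh table. Levels are given as CPM, counts scaled to the library size after TMM normalization, and 3 counts, the upper limit that a count of 0 allows, correspond to 0.31 to 0.499 CPM and to 0.226 to 0.473 CPM in the respective tables. These limits cover counting error only. Il2rg was listed at 0 in all 24 libraries of the Dohh table and at 1909 to 3601 counts in the Odc table, as were 73 genes in all with a mean above 200 counts, and levels are compared within a table only. Whether the tables were counted with different settings was not tested. Odc1 had mean levels of 469 to 610 CPM in Odc-/- cells and 407 to 733 CPM in WT cells, and Dohh 53.6 to 99.5 CPM in Dohh-/- cells and 36.8 to 40.4 CPM in WT cells, but only some exons are floxed and the gene totals do not check the deletion. The subset factors of TH1, TH2 and Treg cells stood where their names put them in WT cells, with Tbx21 at 148 CPM in TH1, Gata3 at 258 CPM in TH2 and Foxp3 at 478 CPM in Treg cells of the Odc table and with 88.7, 232 and 576 CPM in the Dohh table. In the other WT subsets of either table their means were at most 51.6 CPM.

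Some libraries stood apart from their groups or labels. Over all genes, the library closest to Odc-/- TH1 replicate 1 was WT TH1 replicate 4, and WT replicate 4 had the most Il9 of the WT libraries in every subset. In the Dohh table, Dohh-/- TH17 replicate 1 was closest to a Treg library and Dohh-/- TH1 replicate 1 to a TH2 library, and TH1 replicate 3 differed from the other 2 in Il24, Lta, Csf2 and Tnf. Without Dohh-/- TH1 replicate 1 that comparison had 4 higher and 3 lower genes, with Il3 (log2 -3.49) in place of Lta among the lower, and without TH17 replicate 1 that comparison had 2 higher and 1 lower. Without Dohh-/- TH1 replicate 3 the TH1 comparison had 2 higher and 2 lower genes. Without Dohh-/- Treg replicate 3 the Treg comparison had 4 higher and 0 lower.

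Cell identity also moved with the deletions. Mean Cd4 was 36.1 to 61.3 CPM in Dohh-/- cells against 702 to 941 CPM in WT cells, and 347 to 511 CPM in Odc-/- cells against 659 to 883 CPM. Trdc, the constant region of the γδ T cell receptor, was at 344 to 592 CPM in Dohh-/- against 20.7 to 26.9 CPM in WT cells, and at 52.1 to 208 CPM in Odc-/- against 10.2 to 21.3 CPM. Of 12 markers of basophils and mast cells (11 tested in the Odc table), 9 to 10 were higher in the Odc-/- subsets and 10 to 12 in the Dohh-/- subsets. Their summed level ranged from 31.1 to 380 CPM in Odc-/- libraries against 6.8 to 52.5 CPM in WT, and from 109 to 1750 CPM in Dohh-/- libraries against 6.09 to 26.2 CPM. The summed myeloid markers were at 606, 9170 and 12000 CPM in Dohh-/- TH17 libraries against 40.2 to 44.9 CPM in WT, and at 369, 4480 and 5060 CPM in Dohh-/- Treg libraries against 29.1 to 32.4 CPM. In the other Dohh-/- libraries they ranged from 7.67 to 854 CPM, and in Odc-/- libraries from 14.7 to 822 CPM against 13.5 to 58.0 CPM in WT. The genes of T cell identity summed to 4820, 3420 and 3570 CPM in the same Dohh-/- TH17 libraries. Tpsab1 was at 0 in 7 of the 8 WT groups, and also at 0 in Odc-/- and Dohh-/- TH1 and TH2 cells. Of 6 γδ T cell markers 5 or 6 were higher in each comparison, 1 to 9 of 11 myeloid markers in the Odc and 3 to 11 of 12 in the Dohh comparisons, and all 8 B cell markers in Odc-/- TH1, TH2 and Treg cells. In Odc-/- TH17 cells 1 of the 8 B cell markers was higher. In Dohh-/- TH1, TH2, TH17 and Treg cells 1, 0, 2 and 4 of 7 were higher, with 1 lower in TH1. Of the CD8 T and NK cell markers 2 to 6 of 7 were higher in the Odc and 4 or 5 of 6 in the Dohh comparisons, and of 10 genes of T cell identity 0 to 4 and 5 were lower. Some went the other way. In Odc-/- TH1 and TH2 cells 1 myeloid marker each was lower, and in Dohh-/- TH1 and TH2 cells 1 CD8 T or NK cell marker each. In each Dohh-/- subset 1 gene of T cell identity was higher. Shares of all genes were 8.35% to 13.9% higher and 7.21% to 13.6% lower in the Odc comparisons. In the Dohh comparisons they were 14.3% to 17.5% and 11.6% to 15.2%. Mean Foxp3 was at 106 CPM in Dohh-/- and 408 CPM in Odc-/- Treg cells. The part of these cells in the results below was not tested. In such bulk samples, fewer cells of a type and less RNA per cell cannot be told apart.

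WT cells expressed the 10 genes at widely different levels. Per kb of exon, which allows genes to be compared, Lta reached 578 CPM per kb in WT TH1 cells and Il24 563 CPM per kb in WT TH2 cells of the Odc table, whereas Il6 stayed at 0.353 CPM per kb or less in each subset of that table. In the Dohh table the highest were Il24 in TH2 (577 CPM per kb) and Lta in TH1 cells (492 CPM per kb), and Il6 had at most 0.133 CPM per kb. The levels of 8 genes differed among the WT subsets of the Odc table and those of 8 genes among those of the Dohh table (adjusted p below 0.05, F test of edgeR's quasi-likelihood model), against 71.1% and 40.1% of all genes tested. The exceptions were Il6 (adjusted p = 0.225) and Il9 (adjusted p = 0.0915 by edgeR) in the Odc table and Il6 (adjusted p = 0.276) and Csf2 (adjusted p = 0.207 by edgeR) in the Dohh table. With the replicate number as a block, which pairs WT libraries of the Odc table across subsets, Il9 also differed there (adjusted p = 0.0352 by edgeR). Fits of the WT groups alone moved Il9 of the Odc table (adjusted p = 0.0324) and Csf2 of the Dohh table (adjusted p = 0.00168 by edgeR) past the threshold.

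**Figure D1:**
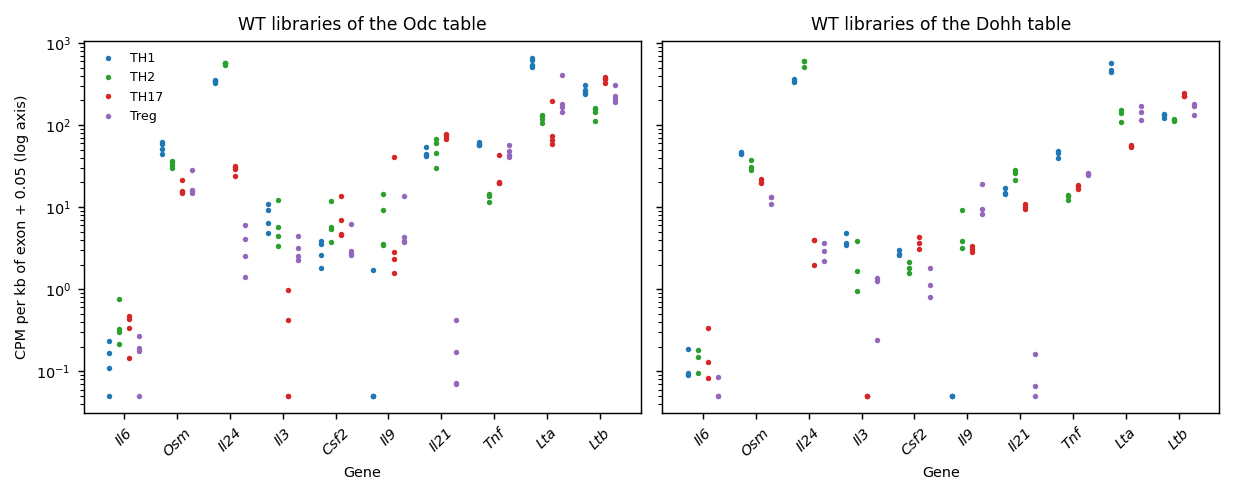
Level of each gene in each WT library, in CPM per kb of exon plus 0.05 on a log axis, coloured by subset, with the Odc table on the left and the Dohh table on the right. Il24 spreads from 3.47 CPM per kb in Treg to 563 CPM per kb in TH2 cells of the Odc table as group means, and Il21 is near the bottom in Treg cells alone.

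Il21 and Il24 spanned 549.7-fold and 162.1-fold in the Odc table and 582.4-fold and 200.5-fold in the Dohh table from the highest to the lowest WT subset mean. The Il21 folds rest on few counts in WT Treg cells, at most 17 in a library of the Odc table (replicate 3) and 8 in one of the Dohh table (replicate 1). Il21 ranged from 0.103 to 1.96 CPM and from 0 to 0.602 CPM in the WT Treg libraries of the respective tables, so its folds are rough. Il9 and Il3 were at 0 in the lowest WT subset of the Dohh table, so no fold is given for them there. The WT mean of Il24 in the Odc table was 781 CPM in TH2, 474 CPM in TH1, 40.1 CPM in TH17 and 4.81 CPM in Treg cells, and no 2 neighbours in this order overlapped. The order was the same in the Dohh table, at 799, 480, 4.51 and 3.99 CPM, where TH17 and Treg libraries overlapped. Il21 was at 387 CPM in TH17, 269 CPM in TH2 and 241 CPM in TH1 cells of the Odc table and at 0.703 CPM in Treg cells, with overlap between TH2 and TH1 only. In the Dohh table the order was TH2 (133 CPM), TH1 (81.4 CPM), TH17 (53.5 CPM) and Treg (0.229 CPM), without overlap. Lta, Tnf and Osm were highest in TH1 cells of both tables and Ltb in TH17 cells. Lta ran from 800 CPM in TH1 to 138 CPM in TH17 cells of the Odc table and from 680 to 77.5 CPM in the Dohh table. Il3 was highest in TH1 cells (4.91 and 2.47 CPM) and lowest in TH17 cells (0.203 and 0 CPM), with TH1 overlapping TH2 and TH2 overlapping Treg libraries in each table.

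All 10 genes passed the low-count filter in each table and were tested in each comparison. Calls are from edgeR's quasi-likelihood test and need a change of more than 2-fold with an adjusted p below 0.05 (Benjamini-Hochberg, over all genes tested). Since the genes were chosen with earlier results known, the shares of all genes are a description beside their counts and not a test. Among Odc-/- TH1 cells 3 of 10 were higher, where 10.2% of all genes were, and 0 were lower, where 11.3% of all genes were. Odc-/- TH2 cells had 3 higher and 2 lower, against 11.5% and 13.6% of all genes. For Odc-/- TH17 cells the counts were 6 and 0, against 8.35% and 7.21%, and for Odc-/- Treg cells 6 and 0, against 13.9% and 10.1%. At an unadjusted p below 0.05, 1 gene was lower in TH1, 2 in TH17 and 0 in Treg cells, and DESeq2 called 0 lower in each of the 3. Dohh-/- TH1 cells had 4 higher and 3 lower, against 14.8% and 14.2% of all genes, and TH2 cells 3 and 2, against 14.3% and 11.6%. Dohh-/- TH17 cells had 2 higher and 1 lower, against 17.3% and 14.1%, and Treg cells 7 and 0, against 17.5% and 15.2%, with 0 lower also at an unadjusted p below 0.05 and by DESeq2. The median log2 fold change of the 10 was -0.11, 0.19, 1.30 and 1.17 in Odc-/- TH1, TH2, TH17 and Treg cells and 0.30, 0.47, 0.58 and 1.43 in the Dohh-/- subsets, where that of all genes lay between -0.00193 and 0.0731.

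**Figure D2:**
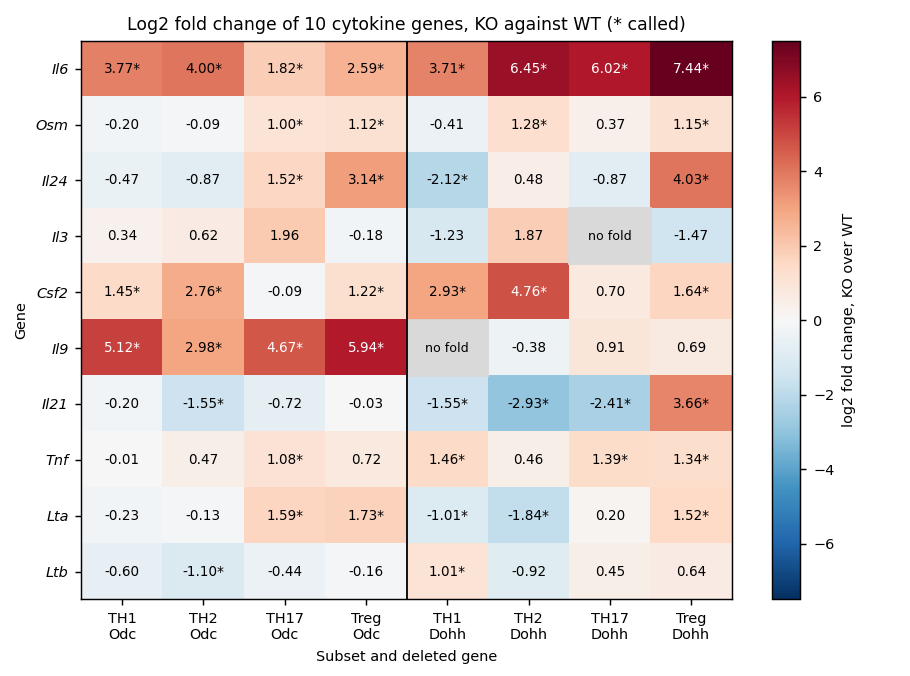
Log2 fold change of each gene, knockout over WT, in the 8 comparisons, with red for higher, blue for lower and a star for called genes. Il6 is called higher in all 8 columns, Il9 in the 4 Odc columns and in none of the Dohh columns, and the cells marked no fold have both groups near 0.

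Il6 was the one gene called in all 8 comparisons, always higher in the knockout. WT Odc libraries of TH1 cells had 0.145, 0, 0.290 and 0.444 CPM and Odc-/- libraries 0.906, 3.04, 6.33 and 2.38 CPM. In TH2 cells the WT libraries had 0.612, 0.40, 0.668 and 1.75 CPM and the Odc-/- libraries 9.14, 18.9 and 13.2 CPM. Every Odc-/- library of these subsets lay above every WT library, although WT TH1 values rest on 6 counts in all. Fold changes were 14.4 in TH1 (log2 3.77, standard error 0.87, adjusted p = 0.000662) and 16 in TH2 cells (log2 4.00, standard error 0.66, adjusted p = 1.76e-05), by edgeR's quasi-likelihood test. In TH17 cells the libraries overlapped, with 0.928, 0.234, 1.02 and 0.697 CPM in WT and 1.46, 0.526, 6.66 and 2.08 CPM in Odc-/- cells. The fold change there was 3.73 (log2 1.82, adjusted p = 0.0327 by edgeR), and the call was lost without Odc-/- replicate 3 (log2 0.90), without WT replicate 2 or 4, or without the low-count filter. Treg cells had 0.529, 0.310, 0.346 and 0 CPM in WT and 1.45, 0.723, 4.40 and 1.04 CPM in Odc-/- libraries, without overlap. Their fold change was 6.43 (log2 2.59, adjusted p = 0.00752 by edgeR), and without replicate 3 of Odc-/- cells the log2 fold change was 1.77 and the adjusted p 0.0841.

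In the Dohh table Il6 rose in every subset, without overlap. TH2 libraries had 0.247, 0.317 and 0.112 CPM in WT and 6.09, 20.1 and 36.9 CPM in Dohh-/- cells, and TH17 libraries 0.0807, 0.195 and 0.693 CPM and 12.58, 21.0 and 26.6 CPM. Each knockout library stood far above each WT library. The fold changes were 93.2 (log2 6.45, standard error 0.66, adjusted p = 2.27e-07) and 62.1 (log2 6.02, standard error 0.64, adjusted p = 3.18e-07 by edgeR). The log2 fold change was 5.76 in TH2 without Dohh-/- replicate 3 and 7.10 in TH17 without WT replicate 3. In TH1 cells Il6 went from 0.331, 0.0996 and 0.112 CPM to 2.15, 2.84 and 2.98 CPM, a fold change of 14.7 (log2 3.71, adjusted p = 0.00025 by edgeR), or log2 4.5 without WT replicate 1. WT Treg cells held 1 count of Il6 in 3 libraries and Dohh-/- Treg cells 212, at 7.73, 6.67 and 7.83 CPM, a ratio of 246 with an exact 95% counting interval of 43.7 to 9761 (adjusted p = 4.94e-07 by edgeR). The interval covers counting error only, and the fitted log2 fold change of 7.44 went to 6.84 without WT replicate 1 and to 9.16 without WT replicate 3. The Odc-/- or Dohh-/- library with the most Il6 in each of the 8 groups, replicate 3 throughout, was also the one with the highest summed basophil and mast cell markers, although in Dohh-/- TH1 cells replicates 2 and 3 were nearly equal (453 and 454 CPM). It had the highest sum of CD8 T and NK cell markers in 6 of the 8 groups and of myeloid markers in 5. The highest sum of γδ T cell markers was in replicate 3 only in Odc-/- Treg and Dohh-/- TH1 cells, and of B cell markers only in TH2 cells of both deletions. The part of these cells in Il6 was not tested. Hdc, histidine decarboxylase, which is one of these markers, was the second most like Il6 among 10779 genes (Pearson r = 0.949 over the 16 group means, each table centred on its own mean). The first was Cbfa2t3 (r = 0.961) and the third Btk (r = 0.949).

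**Figure D3:**
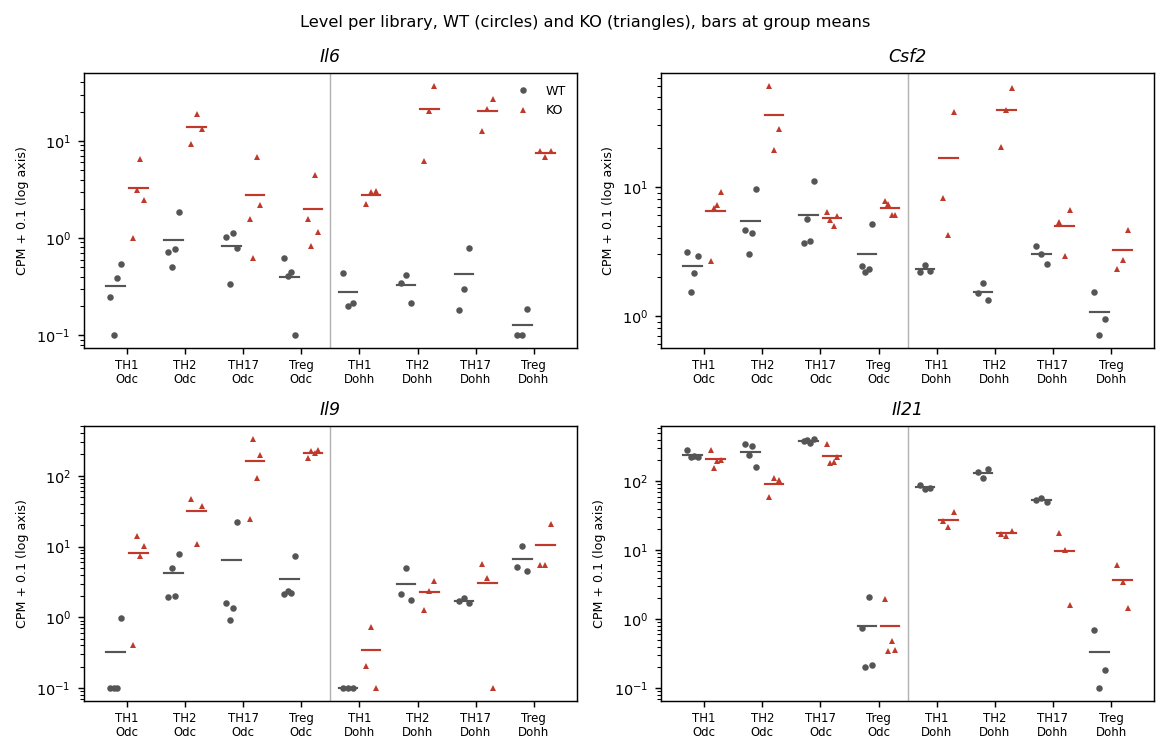
CPM plus 0.1 on a log axis in every library for Il6, Csf2, Il9 and Il21, with WT as circles, knockout as triangles and bars at the group means. Il9 is raised in the Odc columns of its panel and reaches its highest levels in TH17 and Treg cells there, and Il21 is lower in the Dohh-/- libraries of each subset but Treg.

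Osm encodes oncostatin M. In the Odc table it was called higher in TH17 and Treg cells. WT TH17 libraries had 33.8, 35.1, 35.2 and 48.6 CPM and Odc-/- libraries 56.1, 83.1, 83.9 and 82.5 CPM, a fold change of 2.00 at the threshold itself (log2 1.0, standard error 0.19, adjusted p = 0.000119 by edgeR), so that the call was lost in 11 alternative fits, with the lowest log2 fold change, 0.946, without WT replicate 1, although every Odc-/- library lay above the WT ones. In Treg cells it went from 33.8, 35.4, 36.4 and 65.1 CPM to 122, 69.8, 101 and 79.8 CPM (log2 1.12, adjusted p = 1.05e-05 by edgeR), and without Odc-/- replicate 1 the log2 fold change was 0.97. Dohh-/- TH2 cells, in which Odc-/- cells showed a log2 fold change of -0.09, had 163, 193 and 180 CPM against 85.9, 69.8 and 65.0 CPM in WT, a fold change of 2.43 (log2 1.28, adjusted p = 2.01e-05 by edgeR). Dohh-/- Treg cells had 45.2, 66.3 and 76.6 CPM against 24.9, 30.03 and 30.2 CPM (log2 1.15, adjusted p = 4.81e-05 by edgeR). That call was lost without Dohh-/- replicate 3 (log2 0.93) and without WT replicate 1 (log2 0.996). TH1 cells, where WT levels were highest, gave log2 fold changes of -0.20 and -0.41, neither called.

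Il24 rose in Treg cells of both tables and in Odc-/- TH17 cells, and fell in Dohh-/- TH1 cells. Odc-/- Treg cells had 87.3, 20, 42.7 and 20.6 CPM against 8.26, 1.86, 5.65 and 3.5 CPM in WT, a fold change of 8.86 (log2 3.14, standard error 0.40, adjusted p = 4.86e-07 by edgeR), or log2 2.52 without Odc-/- replicate 1. In TH17 cells it went from 40.5, 42.7, 32.8 and 44.3 CPM to 97.8, 157, 93.0 and 113 CPM, a fold change of 2.88 (log2 1.52, adjusted p = 0.000857 by edgeR). Both subsets showed all Odc-/- libraries above all WT libraries. Dohh-/- Treg cells had 51.4, 45.2 and 100 CPM against 4.97, 4.01 and 2.98 CPM, a fold change of 16.4 (log2 4.03, standard error 0.83, adjusted p = 0.00055 by edgeR). In TH1 cells, by contrast, Dohh-/- libraries had 158, 170 and 2.65 CPM against 502, 463 and 475 CPM in WT (log2 -2.12, standard error 0.72, adjusted p = 0.0201 by edgeR). Replicate 3 was far below the other two, and without it the log2 fold change was -1.54 and still called. The call was lost when the model was fitted on the TH1 groups alone (adjusted p = 0.143 by edgeR), and also with the replicate number as a block. In TH2 cells, where Il24 was highest, Odc-/- libraries had 295, 555 and 433 CPM against 741 to 799 CPM in WT (log2 -0.87, adjusted p = 0.0391 by edgeR, under the fold threshold), and Dohh-/- libraries 1156, 995 and 1187 CPM against 844, 844 and 709 CPM (log2 0.48, adjusted p = 0.598 by edgeR). Dohh-/- TH17 libraries, at 3.55, 2.57 and 1.06 CPM against 5.41, 5.46 and 2.66 CPM in WT, gave a log2 fold change of -0.87 (adjusted p = 0.429 by edgeR) with overlap.

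Csf2, the gene of GM-CSF, was called higher in 6 of 8 comparisons, most in TH2 cells. WT TH2 libraries of the Odc table had 4.53, 2.93, 4.28 and 9.48 CPM and Odc-/- libraries 60.7, 19.1 and 27.8 CPM. In the Dohh table the values were 1.40, 1.69 and 1.23 CPM in WT and 20.1, 39.2 and 58.7 CPM in Dohh-/- cells. Neither pair of groups overlapped, and the fold changes were 6.76 (log2 2.76, standard error 0.41, adjusted p = 4.68e-06) and 27.3 (log2 4.76, standard error 0.64, adjusted p = 6.66e-06 by edgeR). Without Odc-/- replicate 2 the first was log2 2.15. In TH1 cells Csf2 went from 3.03, 1.42, 2.03 and 2.81 CPM to 2.57, 6.75, 7.18 and 8.96 CPM with Odc deletion (log2 1.45, adjusted p = 0.00744 by edgeR), where replicate 1 alone lay within the WT range. Dohh-/- TH1 cells had 8.07, 4.10 and 38.1 CPM against 2.07, 2.39 and 2.13 CPM (log2 2.93, adjusted p = 0.000379 by edgeR), and without replicate 3 the log2 fold change was 1.49 and still called. Treg cells gave log2 fold changes of 1.22 (adjusted p = 0.0144) and 1.64 (adjusted p = 0.0389 by edgeR), of which the second was lost in 5 alternative fits, including those without Dohh-/- replicate 2 or 3, WT replicate 2 or 3, or the low-count filter. The lowest of these was log2 1.22 without Dohh-/- replicate 3 (adjusted p = 0.179 by edgeR). In TH17 cells, where WT Csf2 was highest, the log2 fold changes were -0.09 and 0.70 and the libraries overlapped. Wrb (r = 0.907), Zcchc10 (r = 0.904) and Dus2 (r = 0.887) were most like Csf2 over the 16 group means.

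Il3, which lies near Csf2 on chromosome 11, was called in 0 of 8 comparisons by edgeR, with an unadjusted p below 0.05 in 2, and in 1 by DESeq2. Its highest level in any library was 9.14 CPM, in an Odc-/- TH2 library. TH17 cells of the Odc table had 0.232, 0, 0 and 0.581 CPM in WT and 0.266, 1.18, 0.832 and 1.04 CPM in Odc-/- libraries (log2 1.96, adjusted p = 0.0514 by edgeR), which was called without WT replicate 4 (log2 3.19, adjusted p = 0.013 by edgeR) and without Odc-/- replicate 1. Il3 was also called lower in Dohh-/- TH1 cells without replicate 1 of these (log2 -3.49, adjusted p = 0.0103 by edgeR). Dohh-/- TH2 libraries had 2.62, 4.69 and 7.32 CPM against 0.576, 2.43 and 1.01 CPM in WT (log2 1.87, adjusted p = 0.06 by edgeR), without overlap. This difference was called with the replicate block (adjusted p = 0.00329 by edgeR), on the TH2 groups alone, without WT replicate 2 (log2 2.59) and without Dohh-/- replicate 1, and was lowest, at log2 1.46, without Dohh-/- replicate 3. Without WT replicate 4 and Odc-/- replicate 1, a setting chosen after these libraries were seen to stand apart, Il3 was called higher in Odc-/- TH2 (log2 1.11, adjusted p = 0.00525) and TH17 cells (log2 3.49, adjusted p = 0.000534 by edgeR). In TH17 cells of the Dohh table, Il3 had 0 counts in WT and 2 in Dohh-/- libraries, so no fold is given.

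Il9, a growth factor for mast cells and T cells, rose in all 4 Odc-/- subsets. In Treg cells of the Odc table, WT libraries had 2.01, 2.27, 2.07 and 7.34 CPM and Odc-/- libraries 175, 221, 210 and 229 CPM. In TH17 cells, WT libraries had 1.51, 0.820, 1.24 and 21.8 CPM and Odc-/- libraries 24.5, 335, 92.3 and 194 CPM. Knockout and WT libraries did not overlap in either subset, although WT TH17 replicate 4, at 21.8 CPM, came close to Odc-/- replicate 1. The fold changes were 61.0 in Treg (log2 5.94, standard error 0.91, adjusted p = 7.13e-06) and 25.4 in TH17 cells (log2 4.67, standard error 0.84, adjusted p = 0.000125 by edgeR). With WT replicate 4 and Odc-/- replicate 1 left out, the log2 fold changes were 6.69 and 7.43, without WT replicate 4 alone 6.61 and 7.06, and without Odc-/- replicate 2 the value in TH17 was 4.03. TH2 cells went from 1.84, 4.94, 1.87 and 7.73 CPM to 47.2, 10.7 and 37.6 CPM, a fold change of 7.78 (log2 2.98, adjusted p = 0.00752 by edgeR). TH1 cells had 0 counts in 3 WT libraries and 0.888 CPM in the fourth, against 0.302, 14.2, 7.32 and 10.2 CPM in Odc-/- libraries (adjusted p = 0.0107 by edgeR), where replicate 1 overlapped WT. Without WT replicate 4 all WT libraries were at 0 and the call stayed (adjusted p = 0.0177 by edgeR).

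In the Dohh table Il9 was called in 0 of 4 subsets by edgeR, with 0 at an unadjusted p below 0.05, and in 1 by DESeq2. That 1 was TH1, where WT libraries had 0 counts and Dohh-/- libraries 5 in all, so no fold is given. Treg libraries had 5.04, 10.2 and 4.43 CPM in WT and 5.41, 5.45 and 20.7 CPM in Dohh-/- cells (log2 0.69, standard error 0.74, adjusted p = 0.448 by edgeR). TH17 libraries had 1.61, 1.76 and 1.5 CPM and 5.48, 3.46 and 0 CPM, and TH2 libraries 2.06, 4.86 and 1.68 CPM and 1.15, 2.24 and 3.18 CPM, so that all 3 pairs of groups overlapped. Ptdss1 (r = 0.906), Cnih4 (r = 0.901) and Med22 (r = 0.881) were most like Il9.

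Il21 was the main gene among the 10 that fell. In Odc-/- TH2 cells it went from 352, 243, 321 and 160 CPM in WT to 59.0, 110 and 106 CPM, 2.93-fold lower (log2 -1.55, standard error 0.32, adjusted p = 0.000202 by edgeR), without overlap. Dohh-/- TH2 cells had 17.2, 16.1 and 19.1 CPM against 137, 112 and 151 CPM, 7.64-fold lower (log2 -2.93, standard error 0.48, adjusted p = 7.12e-05 by edgeR). The Dohh-/- TH2 libraries lay close together and below every WT library. Dohh-/- TH17 cells had 17.9, 9.97 and 1.51 CPM against 53.2, 57.3 and 50.0 CPM, 5.47-fold lower (log2 -2.41, adjusted p = 0.000379 by edgeR, and log2 -3.12 without Dohh-/- replicate 1), and Dohh-/- TH1 cells 26.7, 21.3 and 35.2 CPM against 89.0, 76.1 and 79.0 CPM, 2.94-fold lower (log2 -1.55, adjusted p = 0.00823 by edgeR). In Odc-/- TH17 cells all 4 libraries, at 346, 185, 187 and 223 CPM, lay below the WT range of 358 to 414 CPM, but the log2 fold change of -0.72 stayed under the fold threshold (adjusted p = 0.0375 by edgeR). Treg cells went the other way with Dohh deletion, from 0.602, 0 and 0.0852 CPM, 9 counts in all, to 5.97, 3.33 and 1.34 CPM (log2 3.66, standard error 0.84, adjusted p = 0.00113 by edgeR), and WT replicate 1 held 8 of the 9 counts. Without that library the fitted log2 fold change was 5.77, against 1 WT count. Satb1 (r = 0.971), Mgll (r = 0.954) and Etv6 (r = 0.949) were most like Il21. Part of its counted exons, 8.92% of bases, overlap Gm12534, and 12% of those of Csf2 overlap Gm12223, and the strand setting of the counting is not given in the sources used here.

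Tnf and the lymphotoxin genes lie side by side on chromosome 17, Ltb at 35194439-35196320, Tnf at 35199381-35202007 and Lta at 35203165-35205351 of GRCm38, and did not move as a block. Tnf was called higher in 4 comparisons and lower in none. WT TH17 libraries of the Odc table had 32.0, 33.4, 32.3 and 71.7 CPM and Odc-/- libraries 81.7, 106, 82.4 and 86.7 CPM (log2 1.08, standard error 0.19, adjusted p = 5.56e-05 by edgeR). The groups did not overlap, and WT replicate 4 stood nearer to the Odc-/- libraries than to the other WT libraries. The call was lost in 4 fits that left out 1 library (lowest log2 0.96), and with WT replicate 4 and Odc-/- replicate 1 left out the log2 fold change was 1.5. Dohh-/- cells had 82.9, 56.3 and 89.0 CPM against 26.9, 29.7 and 30.3 CPM in TH17 (log2 1.39, adjusted p = 0.00113 by edgeR) and 89.6, 94.3 and 133 CPM against 40.0, 43.0 and 41.8 CPM in Treg conditions (log2 1.34, adjusted p = 0.00128 by edgeR). In TH1 conditions they had 141, 104 and 361 CPM against 65.5, 74.3 and 80.1 CPM (log2 1.46, adjusted p = 0.000673 by edgeR), and without replicate 3 the log2 fold change was 0.75 and not called. In Odc-/- TH1 cells Tnf was at 77 to 110 CPM against 93.6 to 103 CPM in WT (log2 -0.01, adjusted p = 0.968 by edgeR).

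Lta rose in Treg cells of both models. Odc-/- Treg libraries had 1179, 963, 999 and 975 CPM against 230, 249, 202 and 563 CPM in WT, a fold change of 3.31 (log2 1.73, standard error 0.32, adjusted p = 6.56e-05 by edgeR), and Dohh-/- Treg libraries 365, 449 and 892 CPM against 160, 237 and 199 CPM, a fold change of 2.86 (log2 1.52, adjusted p = 0.00251 by edgeR). Neither pair of groups overlapped, and without Dohh-/- replicate 3 the second log2 fold change was 0.99. Mean Lta of Odc-/- Treg cells, 1029 CPM, lay above that of WT TH1 cells, 800 CPM. In Odc-/- TH17 cells it went from 92.2, 102, 82.0 and 274 CPM to 253, 626, 336 and 441 CPM (log2 1.59, adjusted p = 0.00035 by edgeR), where WT replicate 4 overlapped. Without WT replicate 4 and Odc-/- replicate 1 the log2 fold changes of Lta were 2.34 in TH17 and 2.11 in Treg cells. It fell in Dohh-/- TH2 cells, from 193, 209 and 152 CPM to 48.8, 46.6 and 59.7 CPM, 3.58-fold (log2 -1.84, adjusted p = 0.000832 by edgeR). In Dohh-/- TH1 cells it was at 365, 550 and 99.4 CPM against 613, 781 and 647 CPM (log2 -1.01, adjusted p = 0.0324 by edgeR), a call that 10 alternative fits lost, and the log2 fold change was -0.56 without replicate 3. Odc-/- TH1 and TH2 cells gave log2 fold changes of -0.23 and -0.13.

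Ltb, the membrane anchor of the lymphotoxin heterotrimer, moved least among the 3. It fell in Odc-/- TH2 cells, from 220, 247, 240 and 169 CPM to 77.3, 127 and 101 CPM, 2.15-fold (log2 -1.10, standard error 0.20, adjusted p = 3.7e-05 by edgeR), and without Odc-/- replicate 2 the log2 fold change was -0.94. Odc-/- TH1 libraries, at 268, 266, 256 and 283 CPM, all lay below the WT range of 366 to 473 CPM (log2 -0.60, adjusted p = 0.00486 by edgeR) without reaching the fold threshold. Dohh-/- TH1 cells went up instead, with 208, 406 and 582 CPM against 185, 202 and 205 CPM (log2 1.01, adjusted p = 0.00496 by edgeR), a call that 6 alternative fits lost, with a log2 fold change of 0.65 without replicate 3. Ltb was the 1 gene without ATTTA letters, and Tnfrsf1a (r = 0.914), which encodes a receptor of TNF, was the gene most like it over the group means.

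**Figure D4:**
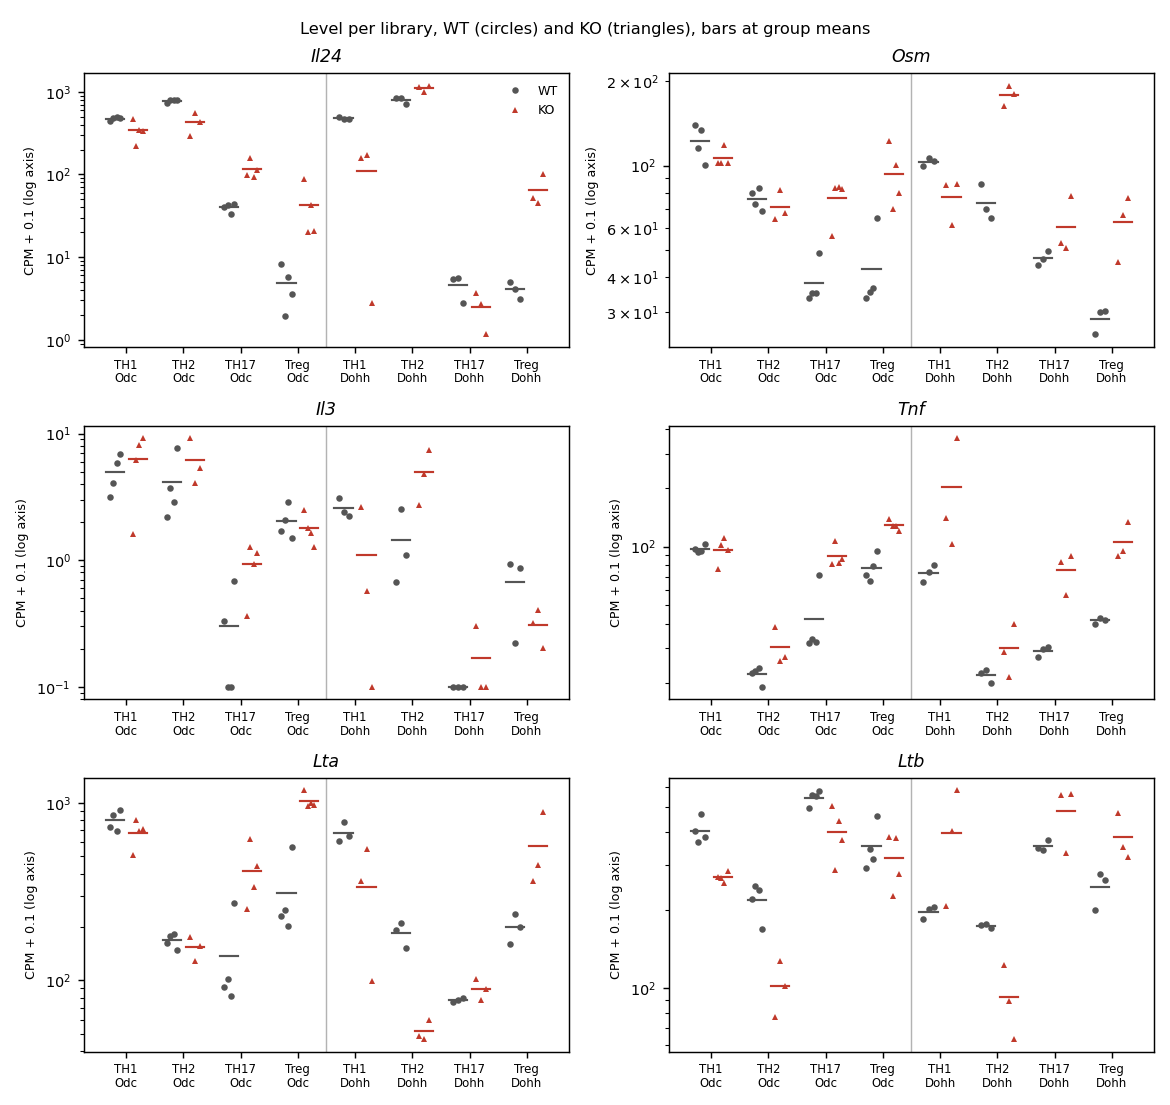
CPM plus 0.1 on a log axis in every library for Il24, Osm, Il3, Tnf, Lta and Ltb, with WT as circles, knockout as triangles and bars at the group means. Lta and Il24 rise in Treg cells of both tables, and WT replicate 4 of the Odc table, the rightmost circle of each group, stands high for Lta in TH17 (274 CPM) and Treg cells (563 CPM).

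An interaction term of genotype with subset served to test whether an effect differed between subsets. In the Odc table it differed for 6 of 10 genes, where 34.8% of all genes passed, and in the Dohh table for 6, where 17.9% passed (adjusted p below 0.05, edgeR). Csf2, Il24, Lta, Ltb and Osm passed in both, Tnf in the Odc table only (adjusted p = 0.0104, and 0.26 in the Dohh table by edgeR) and Il21 in the Dohh table only (adjusted p = 0.000291, and 0.0617 in the Odc table by edgeR). Il24 had the smallest adjusted p in the Odc table, 5.17e-06 by edgeR, with log2 fold changes from -0.87 in TH2 to 3.14 in Treg cells. Il6, Il3 and Il9 did not pass in either table. A block of the replicate number within each genotype joins the subsets of the same number. With it, Il6 (adjusted p = 0.0457), Il9 (adjusted p = 0.0273) and Il21 (adjusted p = 0.019 by edgeR) also passed in the Odc table, and none of the calls in the Dohh table changed.

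The effects of the deletions were then compared in 1 fit of both tables, where tests cover 12924 genes. Dohh deletion had the higher effect for 2 genes in TH1 (5.98% of all genes), 2 in TH2 (6.2%), 1 in TH17 (7.86%) and 2 in Treg cells (8.19%), and the lower effect for 0 in TH1 (5.33%), 1 in TH2 (4.08%), 3 in TH17 (6.09%) and 1 in Treg cells (9.3%). Il6 rose more with Dohh deletion in TH17 (log2 difference 4.25, standard error 1.07, adjusted p = 0.00287) and Treg cells (4.85, standard error 1.60, adjusted p = 0.0178 by edgeR), and the differences in TH2 (2.43, adjusted p = 0.118) and TH1 cells (-0.06, adjusted p = 0.991 by edgeR) did not pass. The difference in TH17 cells was 5.19 without Odc-/- replicate 3 and 5.33 without Dohh WT replicate 3. In Treg cells it was 4.31 without Dohh WT replicate 1 (adjusted p = 0.0576) and 4.45 without Odc WT replicate 1 (adjusted p = 0.0598 by edgeR), and 5.72 without Odc-/- replicate 3 and 6.51 without Dohh WT replicate 3. Il9 rose more with Odc deletion in Treg cells (-5.20, standard error 1.19, adjusted p = 0.000833 by edgeR), at -5.80 without Odc WT replicate 4 and -6.15 without Dohh-/- replicate 3. Its differences in TH17 (-3.65, adjusted p = 0.0505), TH2 (-3.36, adjusted p = 0.0835) and TH1 cells (-1.13, standard error 6.7, adjusted p = 0.933 by edgeR) did not pass. Ltb in TH1 (1.64, adjusted p = 0.000294), Osm in TH2 (1.37, adjusted p = 0.000359), Tnf in TH1 (1.49, adjusted p = 0.00166) and Csf2 in TH2 cells (1.99, adjusted p = 0.0483 by edgeR) were higher with Dohh deletion. Lta in TH2 (-1.71, adjusted p = 0.0178) and TH17 (-1.33, adjusted p = 0.049), Il24 in TH17 (-2.33, adjusted p = 0.049) and Il21 in TH17 cells (-1.64, adjusted p = 0.0208 by edgeR) were lower with it. Il21 in Treg cells was higher (3.72, adjusted p = 0.0207 by edgeR), where the Odc table alone gave a log2 fold change of -0.03. That difference ranged from 2.54 without WT replicate 3 of the Odc table (adjusted p = 0.218 by edgeR) to 5.86 without WT replicate 1 of the Dohh table. Some of these differences were near the threshold. Leaving out 1 library ended the call for Il24 and Lta in TH17 in 11 of 14 fits each, for Csf2 in TH2 in 10 of 13, for Il21 in Treg in 3 of 14 and in TH17 in 2 of 14, for Il6 in Treg in 2 of 14, for Tnf in TH1 in 1 of 14 and for Lta in TH2 cells in 1 of 13. The smallest differences in these fits were -2.06 for Il24 and -1.06 for Lta in TH17, 1.58 for Csf2 in TH2, 0.79 for Tnf in TH1 and -1.57 for Lta in TH2 cells, without Dohh-/- replicate 3, Odc-/- replicate 2, Dohh-/- replicate 3, Dohh-/- replicate 3 and Odc-/- replicate 2 in turn. Il21 in TH17 cells ranged from -2.31 without Dohh-/- replicate 1 to -1.19 without Dohh-/- replicate 3. With RLE size factors in place of TMM, Il24 and Lta left the calls in TH17 cells.

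**Figure D5:**
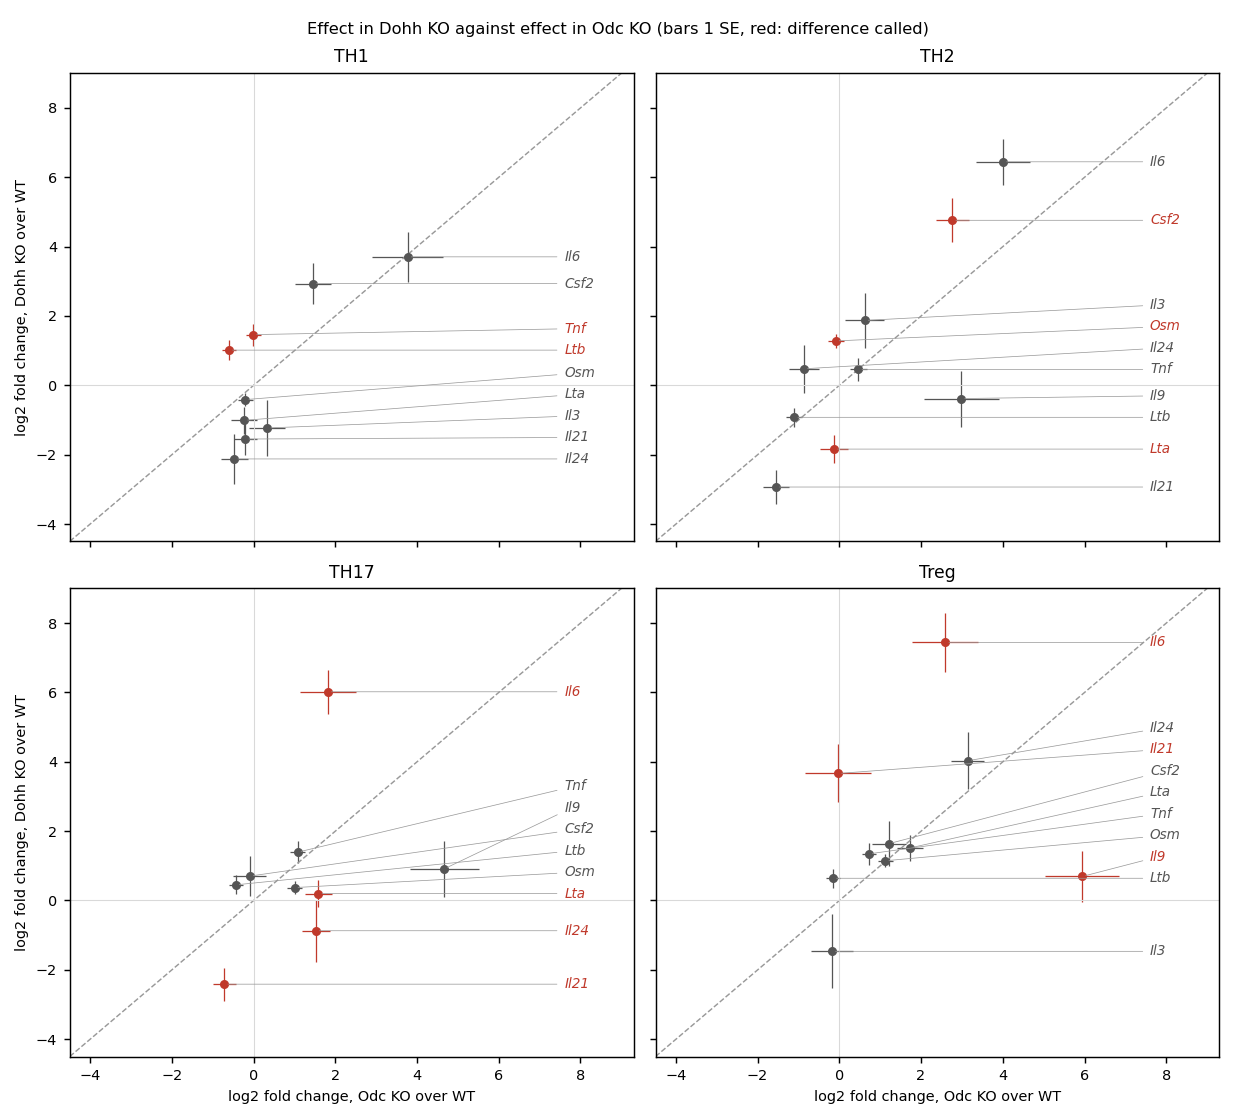
Log2 fold change of each gene with Dohh deletion against that with Odc deletion, 1 panel per subset, with bars of 1 standard error, a dashed line of equal effect and red where the difference is called. Il6 in TH17 and Treg cells lies far above the line and Il9 in Treg cells far below it.

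Among 18 receptor genes for these cytokines (15 tested in the Odc table, 14 in the Dohh table), 2 to 4 were higher and 1 to 3 lower in the Odc comparisons, and 3 to 7 higher and 3 lower in the Dohh comparisons. Csf2rb, the β chain shared by the receptors for GM-CSF and IL-3, and Csf2rb2, a β chain for IL-3, were higher in all 8. Csf2rb went from a mean of 5.54 CPM in WT to 338 CPM in Dohh-/- TH17 cells (log2 5.91) and from 2.07 to 22.5 CPM in Odc-/- TH1 cells (log2 3.44). Il6ra, the IL-6 receptor α chain, was lower in all 8, from 81.2 to 29.6 CPM in Odc-/- TH1 cells (log2 -1.46) and from 50.7 to 0.712 CPM in Dohh-/- TH1 cells (log2 -6.19). Both β chains are expressed by basophils, mast cells and myeloid cells. At least 9 of the basophil and mast cell markers were higher in each of the 8 comparisons. Of the myeloid markers 3, 1, 9 and 9 of 11 were higher in Odc-/- TH1, TH2, TH17 and Treg cells and 3, 10, 11 and 11 of 12 in the Dohh-/- subsets. In Odc-/- TH1 and TH2 cells 1 myeloid marker each was lower. The part of these cells in the result was not tested.

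For the lists here, the shares of all genes were 8.35% to 13.9% higher and 7.21% to 13.6% lower in the Odc comparisons, and 14.3% to 17.5% higher and 11.6% to 15.2% lower in the Dohh comparisons. Of 22 transcription regulators of cytokine genes, 1 or 2 were higher and 3 to 5 lower in the Odc comparisons, and 1 to 3 higher and 5 to 7 lower in the Dohh comparisons. Fosl2, an AP-1 subunit, was lower in all 8, for example from 461 to 50.5 CPM in Dohh-/- TH17 cells (log2 -3.19). Maf, a factor for Il21 and Il4 expression, and Stat5b, which transduces IL-2 signals, were lower in 6 each, Maf from 169 to 40.6 CPM in Odc-/- TH2 cells (log2 -2.06) and Stat5b from 383 to 117 CPM in Dohh-/- TH2 cells (log2 -1.71). Spi1, which encodes PU.1 of myeloid cells, was higher in 7, from 1.87 to 58.7 CPM in Dohh-/- TH17 cells (log2 4.95). Of 12 genes for the decay of cytokine mRNA, 0 to 1 were called in the Odc comparisons and 2 to 5 in the Dohh comparisons. Zc3h12d, a relative of Regnase-1, was lower in 7, from 331 to 71.1 CPM in Dohh-/- TH17 cells (log2 -2.21) and from 178 to 56.8 CPM in Odc-/- Treg cells (log2 -1.65).

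For the other members the likest genes over the group means were Sgms1 (r = 0.9), Il15ra (r = 0.898) and Mcu (r = 0.888) for Il3, Gfpt1 (r = 0.927), Chid1 (r = 0.924) and Elmo2 (r = 0.924) for Il24, Galnt3 (r = 0.942), Ptprj (r = 0.915) and Il18rap (r = 0.907) for Tnf, Mllt6 (r = 0.851), Zdhhc8 (r = 0.827) and 9330175E14Rik (r = 0.778) for Lta, Ube2d1 (r = 0.895) and Fut7 (r = 0.871) for Ltb after Tnfrsf1a, and As3mt (r = 0.909), Gm11427 (r = 0.892) and Atf5 (r = 0.888) for Osm. Among the 10 themselves, Il6 and Csf2 were the most alike pair (r = 0.777) and Il3 and Ltb the least (r = -0.807). These correlations are descriptions over 16 group means, which share libraries and subsets, and carry no test.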

How the data were processed

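The mRNA kit used keeps strand, and the submitters' processing notes name deepTools, STAR, featureCounts and build mm10, without versions. The authors deposited 2 tables of read counts per gene, not normalized, with 1 column per library. Annotation and strand setting are not given in the sources used here. Genes were placed and exon lengths taken with GENCODE vM21 (GRCm38), in which 47224 of the 47937 listed IDs were found, and the rest held 0.0709% and 0.0585% of the counts.

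Counts were analysed per table with edgeR 4.0.16 in R 4.3.3 (filterByExpr, TMM, robust quasi-likelihood model, 1 mean per group), which kept 13839 (Odc) and 13897 (Dohh) genes. Calls need a change of more than 2-fold with an adjusted p (Benjamini-Hochberg, over these genes) below 0.05. Columns of the 2 tables were mapped to samples by name, and replicates were summarized as mean and SD of CPM. The pipeline was tested on simulated data.

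The members and the lists of receptors, regulators, mRNA decay genes and markers were chosen with earlier results of these data known. Named genes are the 10 members, the 2 deleted genes, list genes called one way in at least 6 of 8 comparisons, and the 3 genes most like each member by Pearson r among genes of at least 5 CPM in a group of each table. Other genes, such as Il2rg, Cd4, Trdc, Tpsab1 and the subset factors, are named as checks.

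Alternatives were RLE size factors, no low-count filter, DESeq2 1.42.0, only the groups compared, the replicate number as a block, adjusted p alone, each library left out in turn, and, chosen after the data were seen, WT replicate 4 and Odc-/- replicate 1 left out together. Replicate numbers did not pair WT with knockout libraries (r of deviations from group means from -0.0858 to 0.196). Among WT libraries of the Odc table, every pair of subsets with the same number correlated (lowest r 0.206), so the numbers pair these subsets. Figures were drawn with matplotlib 3.10.9 in Python 3.11.15. One marker of subset identity is not reported here.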

Additional observations from a re-analysis of the deposited data

Results flagged for a closer look

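Groups of 4 libraries were screened for a highest or lowest library whose gap to the next, over the range of the group, exceeded Dixon's 95% critical value. Of 70 groups, all in the Odc table, 13 had one. The critical value stands for about 1 in 20 among independent, normally spread groups. These groups share libraries and some hold few counts, so that rate does not apply to them. WT replicate 4 was the library in 9 of them. It had 0.888 CPM of Il9 in TH1 cells, 21.8 CPM in TH17 cells and 7.34 CPM in Treg cells. Lta was at 274 CPM in its TH17 and 563 CPM in its Treg library, and Osm at 48.6 CPM and 65.1 CPM. Tnf was at 71.7 CPM in its TH17 library and Csf2 at 5.01 CPM in its Treg library. Odc-/- replicate 1 accounted for another 3, with Osm at 56.1 CPM in TH17 cells, Il21 at 1.85 CPM in Treg cells and Lta at 1.18e+03 CPM in Treg cells. The last was Osm in Odc-/- TH1 replicate 3, at 118 CPM.

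The effect of a deletion differed between subsets by the interaction test of edgeR's quasi-likelihood model in 12 cases. With Odc deletion the adjusted p was 0.00297 for Csf2, 5.17e-06 for Il24, 0.0104 for Tnf, 0.000947 for Lta, 0.0324 for Ltb and 0.000153 for Osm. With Dohh deletion it was 0.008 for Csf2, 0.000291 for Il21 and Osm, 0.00357 for Il24, 0.000817 for Lta and 0.00618 for Ltb by edgeR.

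The Dohh effect differed from the Odc effect in another 12 cases, given as log2 differences. It was higher for Il6 in TH17 (4.25) and Treg cells (4.85), Il21 in Treg cells (3.72), Csf2 in TH2 cells (1.99), Ltb and Tnf in TH1 cells (1.64 and 1.49) and Osm in TH2 cells (1.37). It was lower for Il9 in Treg cells (-5.20), Il24 in TH17 cells (-2.33), Lta in TH2 and TH17 cells (-1.71 and -1.33) and Il21 in TH17 cells (-1.64).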

How the results depend on the processing

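Of 42 called fold changes, 29 stayed called in every fit that tested them, 27 of these were tested in all, and 0 of the 42 changed sign. The 4 not tested in all were Il6 in Odc-/- TH1, TH17 and Treg cells and Il9 in Odc-/- TH1 cells. They were under the low-count filter when only the groups compared were fitted, with or without the block. For that reason the count in TH1 cells with Odc deletion was 1 in place of 3 there. Of these 4, Il6 in TH17 and Treg cells also lost its call in other fits. With Dohh deletion the count in TH1 cells was 4 in place of 7, both with the replicate number as a block and with only the groups compared. In these comparisons the block joins WT and knockout libraries, which share only a number. The block of the interaction test instead joined the subsets of the same number within each genotype. It gave 9 in place of 6 genes whose Odc effect differed between subsets. In the comparison of Odc-/- TH17 with WT cells the fit with the block gave 4 called genes in place of 6. There Il6 was under the low-count filter with or without the block. Osm also lost its call with only the groups compared, so this change cannot be put down to the block. Leaving out 1 library at a time gave 3 to 7 called genes in Odc-/- TH17 cells (6 with all libraries), 4 to 7 in Dohh-/- TH1 cells and 4 to 7 in Dohh-/- Treg cells. The lowest came without WT replicate 2 in the first and without replicate 3 of the Dohh-/- cells in the others. Genes whose effects differed between deletions in TH17 cells numbered 4 in all libraries, 2 with RLE size factors, and 1 to 6 with a library left out. The cause of the other changes was not tested.

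Changes of sign concerned values that were not called. With 1 library left out, the log2 fold change with Odc deletion ranged from -0.082 to 0.065 for Tnf in TH1, -0.271 to 0.387 for Csf2 in TH17, and, in Treg cells, -0.382 to 0.035 for Il3, -1.178 to 1.177 for Il21 and -0.262 to 0.000 for Ltb. With WT replicate 4 and Odc-/- replicate 1 both left out it was 0.111 for Tnf in TH1 and 0.333 for Csf2 in TH17 cells. With Dohh deletion, Il9 ranged from -0.746 to 0.183 in TH2 and -0.307 to 1.096 in Treg cells, and Il3 from 0.000 to 3.372 in TH17 cells. The log2 difference between deletions ranged from -0.596 to 0.726 for Il6 in TH1 (0.025 by DESeq2), -0.287 to 0.225 for Tnf in TH2 (0.001 with RLE and by DESeq2), -0.093 to 0.395 for Ltb in TH2, -1.911 to 1.353 for Il3 in TH17, -0.670 to 0.047 for Lta in Treg and -0.169 to 0.246 for Osm in Treg cells.

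Depth limits Il6, Il3 and Il9 most, since WT groups held as few as 1 count of Il6 and 0 of Il3 and Il9. Groups of 3 or 4 libraries leave fold changes near 2 open to 1 library.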

Other observations

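Signature cytokines of the helper lineages, together with Il10 and Il2, were counted in the same comparisons. Of 9 genes (Ifng, Il4, Il5, Il13, Il17a, Il17f, Il22, Il10 and Il2), 4 were higher in Odc-/- TH1, 2 in TH2, 4 in TH17 and 6 in Treg cells, and 5, 7, 5 and 7 in the Dohh-/- subsets. Lower were 2 in Odc-/- TH2 cells and 1 each in Odc-/- and Dohh-/- TH17 cells. Of all genes, 8.35% to 13.9% were higher in the Odc and 14.3% to 17.5% in the Dohh comparisons, and 7.21% to 13.6% and 11.6% to 15.2% lower.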
